A study of Mus musculus with 8 samples.

Results

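The genes described here are 6 inhibitors of cyclin-dependent kinases (CDKs) and Rgcc, a regulator of the cell cycle, in mouse embryonic stem cells depleted of cohesin or condensin. Cdkn1a and Cdkn1b represent the Cip/Kip family, Cdkn2a, Cdkn2b, Cdkn2c and Cdkn2d the Ink4 family, and Rgcc belongs to neither. They are 7 of the 18140 genes measured and were read by 10 of the 34758 probe sets that carry exactly 1 gene symbol. The genes were chosen by name with their direction in the cohesin and condensin knockdowns in view. Their differences from the GFP control, and between the cohesin and the condensin knockdowns, are therefore given as a description. Where the fit across all genes called one of the 7 in these comparisons, the call stands beside the share of all genes called and is not offered as a test of the choice.

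The 8 arrays fall into 4 groups of 2, all of V6.5 mouse embryonic stem cells that carried a lentiviral short hairpin RNA. The Smc1 knockdown targets the cohesin subunit gene Smc1a and was made as 2 biological replicates of 1 hairpin. The CapH2 knockdown targets Ncaph2 of condensin II with hairpins 3 and 4, and the Smc2 knockdown targets the subunit that condensin I and II share with hairpins 1 and 2, each hairpin on 1 array. The reference for all of them was a hairpin against GFP in 2 biological replicates, so that every group, the control included, went through infection (polybrene at 8 µg/ml) and 4 days of selection (puromycin at 4 µg/ml) before RNA was taken on day 5. With 1 hairpin each for Smc1 and GFP, effects of that hairpin on other genes cannot be told apart from those of its target.

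CDKs drive the cell cycle when bound to a cyclin, and their inhibitors hold them in check. Ink4 proteins bind Cdk4 and Cdk6 and keep D-type cyclins off them, whereas Cip/Kip proteins bind complexes of cyclin and CDK, above all those of Cdk2. Mouse embryonic stem cells are known for a short G1 phase, high Cdk2 activity and low levels of most CDK inhibitors, several of which accumulate during differentiation. Cdkn1a encodes p21, the classical p53 target that mediates arrest after DNA damage. Rgcc, the regulator of cell cycle, was described as a gene induced by complement and by p53 whose protein binds Cdk1.

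The promoters of Cdkn1a and Rgcc are shown because these genes, described below, lay on opposite sides of the control in the Smc1 knockdown. The sequences are the 250 bases before each annotated start, from RefSeq for GRCm38.p6, 5′ to 3′ on the strand of the gene. RefSeq lists 2 starts for Cdkn1a. Capitals in the first sequence mark exact matches to the p53 half-site consensus RRRCWWGYYY (R is A or G, W is A or T, Y is C or T). Near matches, such as the bases right after the second marked half-site, stay in lower case. In the other 2 sequences capitals mark GC boxes (GGGCGG on either strand) and TATA boxes (TATAAA or TATAAG on either strand).
Cdkn1a, upstream start, chr17:29090729-29090978, + strand: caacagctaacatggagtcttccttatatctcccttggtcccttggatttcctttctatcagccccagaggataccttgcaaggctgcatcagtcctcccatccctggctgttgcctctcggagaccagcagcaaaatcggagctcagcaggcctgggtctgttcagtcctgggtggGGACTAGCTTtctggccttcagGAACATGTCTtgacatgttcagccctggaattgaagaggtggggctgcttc
Cdkn1a, downstream start, chr17:29093519-29093768, + strand: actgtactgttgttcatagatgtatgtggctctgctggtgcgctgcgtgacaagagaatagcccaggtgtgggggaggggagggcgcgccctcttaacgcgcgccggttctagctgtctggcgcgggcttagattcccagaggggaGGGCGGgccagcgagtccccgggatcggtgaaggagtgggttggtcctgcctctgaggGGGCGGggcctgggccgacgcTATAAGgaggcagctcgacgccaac
Rgcc, chr14:79301636-79301885, - strand: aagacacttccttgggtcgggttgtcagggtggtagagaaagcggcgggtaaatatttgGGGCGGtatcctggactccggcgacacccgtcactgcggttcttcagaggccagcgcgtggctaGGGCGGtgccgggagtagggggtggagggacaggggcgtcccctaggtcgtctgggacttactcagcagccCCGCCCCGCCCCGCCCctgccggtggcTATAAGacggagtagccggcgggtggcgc
The upstream Cdkn1a window held 2 matches to the p53 half-site consensus 0 to 13 bases apart, which 0.0639% of 32851 promoter windows of this length share. At least 1 half-site on either strand was present in 7.13% of all windows. The downstream Cdkn1a window held 2 GC boxes, and the Rgcc window held 5, of which 3 stand side by side and overlap by a base. A GC box was found in 32.7% of all windows, and in 6 of the 10 windows of the 7 genes. A TATA box was found in 17% of all windows and in 3 of these 10. All of these matches are letters in a window and say nothing on whether a factor was bound.

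Array medians lay between 62.5 and 74.5 intensity units, and all 7 genes passed the filter of lying above the array median on at least 2 arrays, in fact on all 8. Each targeted gene was lower in its own knockdown, with log2 differences from GFP of -2.95 for Smc1a (limma adjusted p = 8.04e-05), -2.96 for Ncaph2 (0.00119) and -1.64 for Smc2 (0.0157). Of 10 markers of embryonic stem cells all passed the filter. Their summed intensity was 84541 to 101471 in the Smc1 knockdown, 111561 to 117920 in CapH2 and 120110 to 126780 in Smc2, against 129666 to 135446 in GFP. Dppa5a and Tdgf1 were the brightest on every array and were not called. In Smc1 against GFP limma called 6 of the 10 lower (Pou5f1, Nanog, Sox2, Esrrb, Zfp42 and Fgf4) and Lin28a higher. It called 0 in CapH2 or Smc2 against GFP, and 5 lower in Smc1 against the condensin knockdowns. Of 19 markers of feeder fibroblasts 18 were measured and 13 passed the filter. Their sums were 15280 to 18314 in Smc1, 17306 to 17379 in CapH2 and 14060 to 14451 in Smc2, against 13309 to 19878 in GFP. Vim and Fn1 made up most of each sum, with 6994 and 6344 on Smc1 replicate 1. Of the 13 tested, limma called only Col3a1 in Smc1 against GFP, as higher (299 against 62.2, adjusted p = 0.0154). Of the 18, none was listed at 0, and 6, 5, 8 and 10 lay below the median on both arrays of Smc1, CapH2, Smc2 and GFP. Fewer cells of a type and less RNA per cell cannot be told apart in these bulk samples.

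Cdkn1a lay on opposite sides of the control in the cohesin and the condensin knockdowns. The probe set that stands for it, 1424638_at, read 5239 and 4976 in Smc1, 2055 and 1649 for CapH2 hairpins 3 and 4 and 1629 and 2396 for Smc2 hairpins 1 and 2, against 2655 and 3487 in GFP. The Smc1 arrays were above all others and the 4 condensin arrays below both GFP arrays, while CapH2 and Smc2 overlapped each other. Group means were 5108 ± 186 in Smc1, 1852 ± 287 in CapH2 and 2012 ± 542 in Smc2, against 3071 ± 588 in GFP (SD, n = 2 each). On the scale of log2(intensity + 16) the differences from GFP were 0.74 in Smc1, -0.72 in CapH2 and -0.62 in Smc2 (limma SE 0.221 for each). Smc1 exceeded the mean of the condensin knockdowns by 1.41 (SE 0.191). The second probe set of Cdkn1a, 1421679_a_at, gave 2332 and 1972 in Smc1, 816 and 509.7 in CapH2 and 579.8 and 740.2 in Smc2, against 1069 and 1164 in GFP. It thus showed the same order of groups, with differences from GFP of 0.93, -0.78 and -0.75.

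Cdkn1b encodes p27, another Cip/Kip inhibitor. A further member of the family, Cdkn1c, was also measured and is described below. Cdkn1b was below the control in all 3 knockdowns. Probe set 1434045_at read 1226 and 1089 in Smc1, 892 and 1258 in CapH2 and 726 and 1255 in Smc2, against 1469 and 1602 in GFP. The 6 knockdown arrays lay below both GFP arrays and overlapped among themselves. The differences from GFP were -0.40 in Smc1, -0.53 in CapH2 and -0.67 in Smc2 (SE 0.267). A second Cdkn1b probe set, 1419497_at, read 17.7 to 67.4 over the 8 arrays, lay below the array median on all of them and does not stand for the gene. With the log2 values of both averaged, the differences were -0.27 in Smc1 and -0.72 in CapH2.

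Cdkn2a and Cdkn2b are neighbours on chromosome 4, with 0 protein-coding genes between them in the RefSeq table. Cdkn2a encodes both p16Ink4a and, from another first exon, p19Arf, which restrains Mdm2. The sources used here do not say which of these transcripts its single probe set reads. Cdkn2a (1450140_a_at) measured 704 and 833 in Smc1, 290.2 and 526 in CapH2 and 363 and 593 in Smc2, against 611 and 612 in GFP. As with Cdkn1a, the Smc1 arrays lay above and the condensin arrays below both GFP arrays, but the higher Smc2 array was close to the control. The differences from GFP were 0.32, -0.62 and -0.39 for Smc1, CapH2 and Smc2 (SE 0.305), and Smc1 exceeded the condensin mean by 0.82 (SE 0.264).

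Cdkn2b encodes p15, an Ink4 inhibitor that is induced by TGF-beta in epithelial cells. On 1449152_at it measured 670.5 and 976 in Smc1, 614 and 292 in CapH2 and 261 and 546 in Smc2, against 389 and 386 in GFP. The Smc1 arrays lay above all others, and each condensin knockdown had 1 array above and 1 below the control. The Smc1 mean was 823 ± 216, against 387 ± 2.01 in GFP, a difference of 1.03 (SE 0.392). For CapH2 and Smc2 the differences were 0.13 and -0.03. Smc1 exceeded the condensin mean by 0.98 (SE 0.339).

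Of 10 markers of trophectoderm 6 had their highest mean in the Smc1 knockdown, as Cdkn1a, Cdkn2a and Cdkn2b did. These were the keratins Krt7, Krt8, Krt18 and Krt19 and the factors Cdx2 and Gata3, while Eomes and Tfap2c were highest in GFP and Elf5 and Hand1 in CapH2. The summed intensity of the 10 was 55052 and 40203 in Smc1, 20398 and 10826 in CapH2 and 13037 and 19490 in Smc2, against 19656 and 27726 in GFP. Krt8 and Krt18 made up 60.5 to 83.2% of the sum on every array. Without the 4 keratins the sum was lowest in Smc1, at 1774 and 1803, with 3096 and 3251 in CapH2 and 2597 and 2343 in Smc2, against 3116 and 4758 in GFP. Within each condensin knockdown, hairpin 3 of CapH2 and hairpin 2 of Smc2 had more Cdkn1a and Cdkn2b. These arrays had the higher sums of all 10 markers but the lower sums without the 4 keratins. Cdkn2a was also higher with hairpin 2 of Smc2, but lower with hairpin 3 of CapH2, at 290 against 526 with hairpin 4. Of 9 markers tested, Krt19 and Cdx2 were called higher and Tfap2c lower in Smc1 against GFP (limma adjusted p = 0.00291, 0.011 and 0.0031), and 6 higher and 1 lower in Smc1 against the condensin knockdowns. None of the 10 was listed at 0, and 1 lay below the median on both Smc1 arrays. In CapH2, Smc2 and GFP 3 did so in each. The 10 markers of primitive endoderm, of which 9 were tested, summed to 11772 to 12044 in Smc1, 6921 to 9419 in CapH2 and 5420 to 8045 in Smc2, against 7866 to 9959 in GFP. Lamb1 and Sparc made up most of each sum. Dab2 and Pdgfra were called higher in Smc1 against GFP (limma adjusted p = 0.0113 and 0.0408), and none was called lower. The part of these cell types in the CDK inhibitor values was not tested.

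Cdkn2c and Cdkn2d encode p18 and p19Ink4d, and their group means were lowest in a condensin knockdown, CapH2 for Cdkn2c and Smc2 for Cdkn2d. Cdkn2c (1416868_at) measured 243 and 217 in Smc1, 108 and 179 in CapH2 and 149.6 and 268 in Smc2, against 374 and 240.0 in GFP. Only the CapH2 arrays lay below both GFP arrays, and the differences were -0.36 in Smc1, -1.02 in CapH2 and -0.54 in Smc2 (SE 0.345). Without GFP replicate 2 the Smc1 difference was -0.67, and without GFP replicate 1 it was -0.06. Cdkn2d (1416253_at) measured 1263 and 1246 in Smc1, 910.3 and 1172 in CapH2 and 784 and 1224 in Smc2, against 1555 and 1176 in GFP. Again the CapH2 arrays lay below both GFP arrays, at 1172 for hairpin 4 only just, and the other groups overlapped the control. The differences were -0.11 in Smc1, -0.38 in CapH2 and -0.46 in Smc2 (SE 0.248), and the Smc1 difference was 0.09 without GFP replicate 1.

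**Figure D1:**
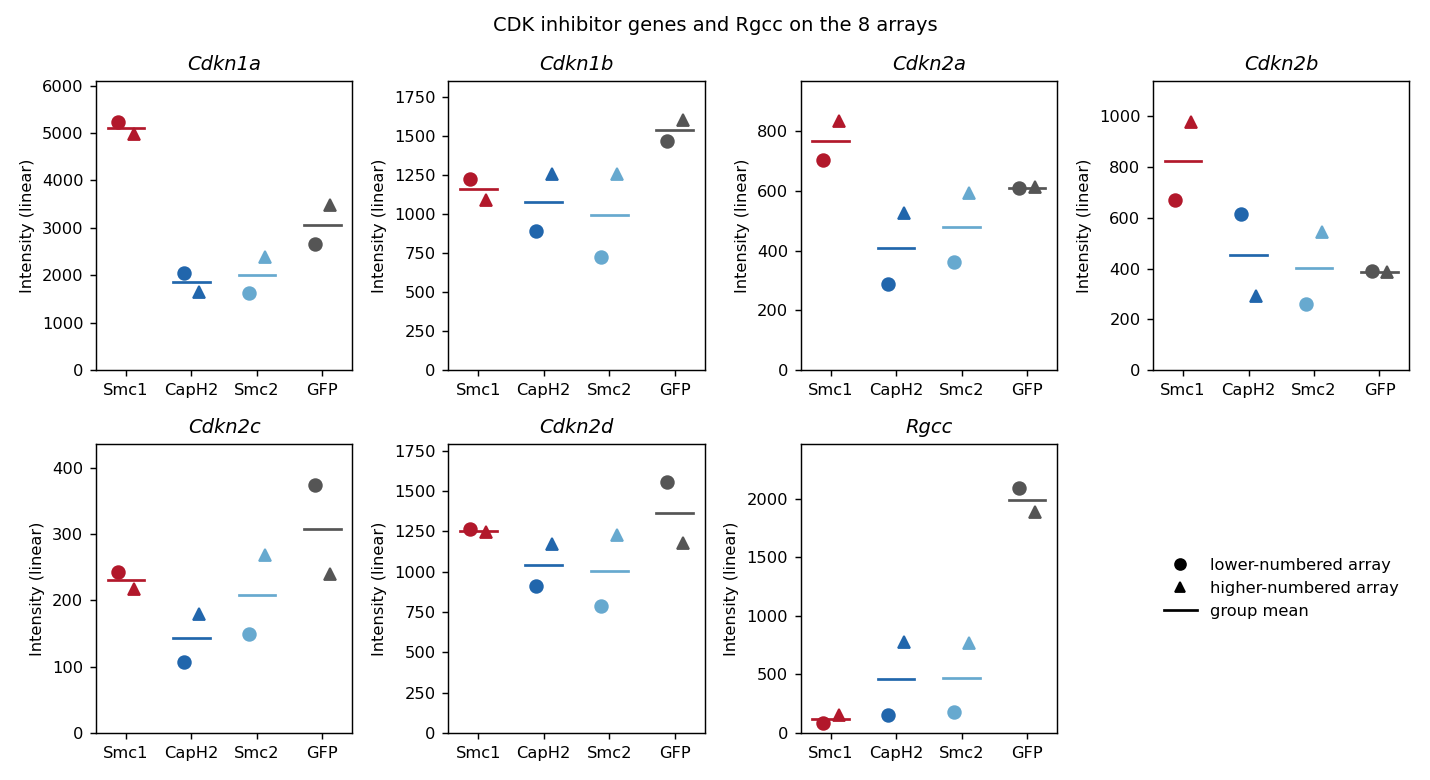
Intensity (linear scale) of each gene's brighter probe set on the 8 arrays, with circles for the lower-numbered and triangles for the higher-numbered replicate or hairpin of a group and lines for group means. Cdkn1a, Cdkn2a and Cdkn2b are highest on the Smc1 arrays, and Rgcc is highest on the GFP arrays at 2097 and 1887.

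Rgcc was lower in every knockdown and lowest in Smc1. Its brighter probe set, 1438511_a_at, read 83.1 and 149 in Smc1, 149 and 781 in CapH2 (hairpins 3 and 4) and 179.6 and 768 in Smc2 (hairpins 1 and 2), against 2097 and 1887 in GFP. All 6 knockdown arrays lay below both GFP arrays, and CapH2 hairpin 3 and Smc2 hairpin 1 were near the Smc1 arrays. As a share of the GFP mean this was 4.17 and 7.49% in Smc1, 7.48 and 39.2% in CapH2 and 9.02 and 38.5% in Smc2. The dimmer probe set, 1418003_at, read 112 and 92.7 in Smc1, 164 and 484 in CapH2 and 128 and 557 in Smc2, against 1102 and 876 in GFP. It gave 11.3 and 9.37%, 16.6 and 49.0%, and 13 and 56.3% of the GFP mean in the same order of arrays. The differences from GFP were -3.97 in Smc1, -2.47 in CapH2 and -2.36 in Smc2 on the brighter probe set (SE 0.724), and -3.08, -1.73 and -1.80 on the dimmer one. The Smc1 values were not far above the array medians of 62.5 to 74.5, so the size of that difference is not firm.

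The ratio of the Actb 3′ to 5′ control probe sets, a sign of RNA and labelling quality, differed between the same arrays. It was 1.70 and 1.84 in Smc1, 1.67 and 1.98 in CapH2 and 1.82 and 2.18 in Smc2, against 2.18 and 2.04 in GFP. The 4 arrays with the lowest ratios, both of Smc1, CapH2 hairpin 3 and Smc2 hairpin 1, were also the 4 with the least Rgcc on both probe sets. The Gapdh ratio split the arrays in this way only in part. It was lowest in CapH2 hairpin 3, Smc2 hairpin 1 and Smc1 replicate 1, while Smc1 replicate 2 lay between the GFP arrays. It was 0.833 and 0.862 in Smc1, 0.790 and 0.863 in CapH2 and 0.813 and 0.845 in Smc2, against 0.864 and 0.857 in GFP. With the log2 ratio as a covariate, a term chosen after the data were seen, the Rgcc differences were -1.98 in Smc1, -0.80 in CapH2 and -1.72 in Smc2. In the same fit the Smc1 differences of Cdkn1b, Cdkn2c and Cdkn2d were 0.09, 0.32 and 0.38, opposite in sign to those without it, that of Cdkn2a was 1.01, and those of Cdkn1a and Cdkn2b were 0.78 and 1.15. With the covariate Cdkn2a and Rgcc were called in Smc1 against GFP, where limma called 4.63% of all genes, against 14.1% without it. Rgcc was called in Smc2 against GFP, where limma called 0.468% of all genes, against 0.0161% without the covariate. The part of RNA quality in these values was not tested beyond this fit.

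**Figure D2:**
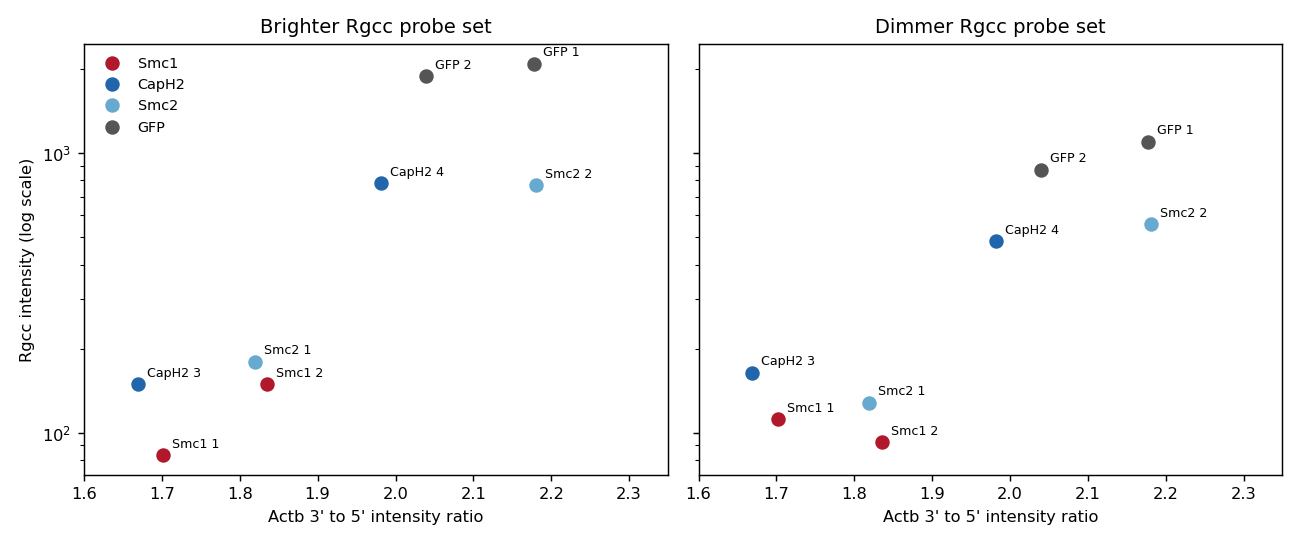
Rgcc intensity (log scale) against the Actb 3′ to 5′ intensity ratio on each array, for the brighter and the dimmer Rgcc probe set, with arrays labelled by group and replicate or hairpin number. The 4 arrays with ratios of 1.67 to 1.84 hold the lowest Rgcc values on both probe sets.

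The spread between the arrays of a condensin knockdown was large for most of these genes. For Rgcc, the log2 difference of CapH2 hairpin 3 from hairpin 4 was -2.27, greater in size than for 99.9% of all genes tested, and that of Smc2 hairpin 1 from hairpin 2 was -2.00, greater than for 99.6%. The median size of this difference over all genes was 0.26 in CapH2 and 0.30 in Smc2, and 0.23 in Smc1 and 0.22 in GFP. Cdkn1b (-0.49 and -0.78), Cdkn2a (-0.82 and -0.68), Cdkn2c (-0.66 and -0.78) and Cdkn2d (-0.36 and -0.63) were lower with CapH2 hairpin 3 and with Smc2 hairpin 1 too. Cdkn1a (0.31 and -0.55) and Cdkn2b (1.03 and -1.02) differed in opposite directions between the hairpins of CapH2 and of Smc2. Across genes, which are not independent replicates, these differences of CapH2 and Smc2 correlated with r = 0.411. Another fit, chosen after the data were seen, paired CapH2 hairpin 3 with Smc2 hairpin 1, and hairpin 4 with hairpin 2. Its term sets hairpin 4 and hairpin 2 apart, so differences from GFP are read at the level fitted for hairpins 3 and 1. They are not differences of group means, and for Rgcc in CapH2 the value moved from -2.47 to -3.54. At that level Cdkn1b, Cdkn2a, Cdkn2c and Rgcc were called in CapH2 against GFP, where limma called 9.72% of all genes. Cdkn1b, Cdkn2a and Rgcc were then called in Smc2 against GFP, where it called 9.98%.

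**Figure D3:**
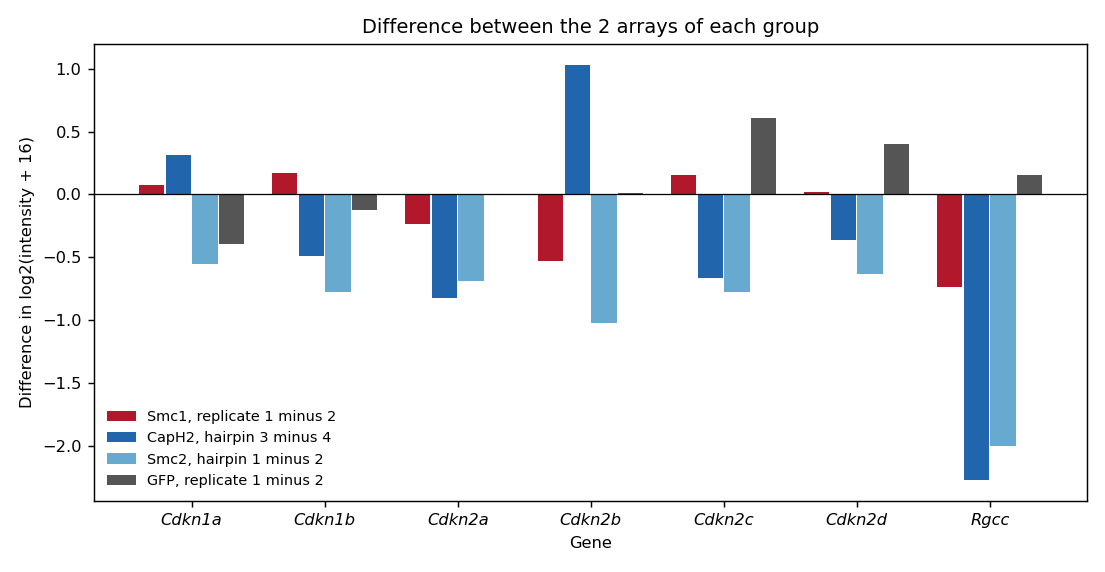
Difference in log2(intensity + 16) between the lower-numbered and the higher-numbered array of each group, for each gene. The Rgcc bars of CapH2 and Smc2 reach -2.27 and -2.00, and the Cdkn2b bars of CapH2 and Smc2 point in opposite directions at 1.03 and -1.02.

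Counted over the 7 genes, limma called 1 in Smc1 against GFP, where it called 14.1% of the 12400 genes tested, 9.38% as higher and 4.69% as lower. At an unadjusted p below 0.05 there were 3, against 31.2% of all genes. The called gene was Rgcc, at -3.97. It was not called without Smc1 replicate 1 (-3.60), GFP replicate 1 (-3.89) or GFP replicate 2 (-4.05), where 1.13, 1.88 and 4.53% of all genes were called. Leaving out either Smc2 array kept the Smc1 differences of Cdkn1a and Cdkn2b at 0.74 and 1.03, as only the estimate of the spread changed. In CapH2 and in Smc2 against GFP limma called 0 of the 7 and 0.0161% of all genes in each. In both, 3 of the 7 had an unadjusted p below 0.05, as did 12.6% of all genes. Without Smc2 hairpin 2, Rgcc was called in Smc2 against GFP (-3.36, with 1.57% of all genes called). Since the genes were chosen with these comparisons in view, nothing is read from the counts.

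Both Smc1 arrays lay above both GFP arrays for 3 of the 7 genes (Cdkn1a, Cdkn2a and Cdkn2b), as they did for 34.6% of all genes, and below for 2 (Cdkn1b and Rgcc), as for 28.4%. The CapH2 arrays lay below GFP for 6 (all but Cdkn2b), as for 21.9% of all genes, and above for 0, as for 25.3%. The Smc2 arrays lay below for 4 (Cdkn1a, Cdkn1b, Cdkn2a and Rgcc), as for 21.7%, and above for 0, as for 23.2%. The median difference of the 7 genes was -0.11 in Smc1, -0.62 in CapH2 and -0.54 in Smc2, against 0.03, 0.01 and -0.00 over all genes. The 3 comparisons share the GFP arrays.

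Between the cohesin and the condensin knockdowns limma called 1 of the 7 genes and 7.85% of all genes, 5.6% of them as higher and 2.24% as lower. At an unadjusted p below 0.05 there were 4, against 23.7% of all genes. Cdkn1a was the gene called, at 1.41. It was not called without Smc1 replicate 1 (1.38), where 0.0806% of all genes were called. With single arrays left out, the difference ran from 0.62 to 1.03 for Cdkn2a and from 0.72 to 1.25 for Cdkn2b. The Smc1 arrays lay above all 4 condensin arrays for Cdkn1a, Cdkn2a, Cdkn2b and Cdkn2d, 4 of the 7, as for 20.5% of all genes. Rgcc was lower in Smc1 by 1.56 (SE 0.627), with Smc1 replicate 2 and CapH2 hairpin 3 both at 149. That difference ran from -2.13 to -0.99 when single arrays were left out. It was -0.49 with the condensin arrays paired, a fit that reads the condensin knockdowns at CapH2 hairpin 3 and Smc2 hairpin 1. Cdkn1b and Cdkn2c were higher in Smc1 by 0.20 and 0.42, with overlapping arrays.

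**Figure D4:**
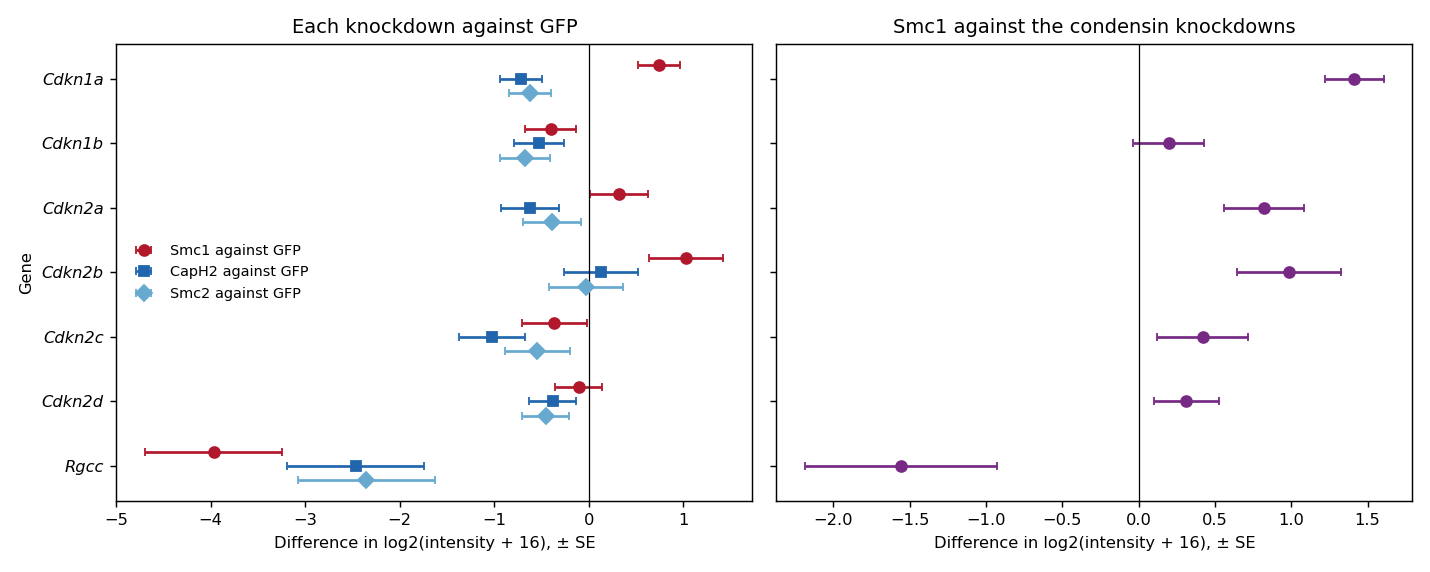
Differences in log2(intensity + 16) with limma standard errors for each gene, on the left for each knockdown against GFP and on the right for Smc1 against the averaged condensin knockdowns (n = 2 arrays per group). Standard errors of a gene rest on 1 spread shared by all 4 groups, which mixes hairpins with replicates. For Cdkn1a the Smc1 point lies at 0.74 and the CapH2 and Smc2 points at -0.72 and -0.62.

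The comparison of CapH2 with Smc2 asks where loss of condensin II and of both condensins differ. It was taken as independent of the choice of genes and tested, although the sources do not state which values that choice used. Limma called 0 of the 7 genes, 0.00806% of all genes, and 0 of the 7 had an unadjusted p below 0.05, as did 1.03% of all genes. Each of the 7 had an adjusted p of 1. The differences, CapH2 minus Smc2, ran from -0.48 for Cdkn2c (95% interval -1.25 to 0.29) to 0.16 for Cdkn2b (-0.71 to 1.03). For Cdkn1a the difference was -0.10 (-0.59 to 0.39). For Rgcc it was -0.11 with an interval of -1.73 to 1.5, so a difference of several fold in either direction was not detectable with these arrays. The CapH2 and Smc2 arrays overlapped for all 7 genes, whereas CapH2 lay wholly above Smc2 for 12.6% of all genes and wholly below for 10.2%.

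Cdkn1c and Cdkn3 stand close to the 7 genes by name. Cdkn1c encodes p57, the imprinted member of the Cip/Kip family. It measured 1054 and 747 in Smc1, 908 and 652 in CapH2 and 977 and 701 in Smc2, against 545 and 459.9 in GFP. All 6 knockdown arrays lay above both GFP arrays, unlike those of Cdkn1b, but the differences of 0.81, 0.60 and 0.71 were not called (limma adjusted p = 0.0654, 0.384 and 0.324). In Smc1 it was called higher without either Smc2 array (0.0447 and 0.0436), with only the groups compared (0.0236) and with the condensin arrays paired (0.0167), and over all settings its adjusted p reached 0.474. Cdkn3, a phosphatase that acts on Cdk2, was not called either, at 0.47 in Smc1 (adjusted p = 0.153), -0.14 in CapH2 (0.795) and -0.00 in Smc2 (0.994).

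In the wider cell cycle machinery, 2 D-type cyclins moved in opposite directions in the Smc1 knockdown. Ccnd2 rose to 1102 ± 31.6, against 218 ± 73.4 in GFP (SD, n = 2 each), a log2 difference of 2.29 (limma adjusted p = 0.00586). Ccnd3 fell to 1082 ± 243, against 3517 ± 244 in GFP (-1.70, adjusted p = 0.00271). Cdk6, their kinase partner and a target of Ink4 proteins, rose by 1.70 (0.0225), and Cdk2, the main kinase held by Cip/Kip proteins, fell by 0.67 (0.0283). Of 15 CDK, cyclin and CDK-activating kinase genes tested these 4 were called. With the mean of all probe sets of a gene, the differences of Ccnd3 (-0.82, adjusted p = 0.0646), Cdk6 (0.96, 0.0773) and Cdk2 (-0.52, 0.165) were not called, and Ccnd2 (1.90, 0.012) was. The other probe sets of Ccnd3 and Cdk2 lay above the array median on 0 arrays, as did 1 of the other 2 of Cdk6. None of 5 genes for the Cdc25 phosphatases and the Wee1 kinases was called. Of 13 genes of the Rb and E2F families, E2f7 (1.04, adjusted p = 0.0166), an atypical repressor, and E2f3 (1.40, 0.0246), an activator, rose, while Tfdp2 (-0.93, 0.0198), a dimer partner of E2F, and E2f5 (-0.62, 0.0474), a repressor of the family, fell.

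Genes that act on CDK inhibitors were called in both directions in Smc1. Of 19 transcription factor genes 5 rose and 1 fell. Id1 (2.19, limma adjusted p = 0.00235), Id2 (1.66, 0.00355) and Id3 (4.13, 0.00366), which block bHLH activators, rose, and Klf4 (-1.49, 0.00276), known to activate Cdkn1a, fell to 2397 ± 372, against 6811 ± 1457 in GFP. Of 11 polycomb genes Bmi1 (1.05, 0.0101), a repressor of the Ink4 locus, rose and Suz12 (-0.76, 0.024), a subunit of PRC2, fell. Of 12 genes for the turnover of Cip/Kip proteins only Dtl (-0.77, 0.0135) was called, which encodes a ligase subunit that targets p21. Of 22 p53 targets other than Cdkn1a, 5 rose, among them Plk2 (1.56, 0.013), Ccng1 (0.60, 0.0157) and Btg2 (1.25, 0.0203), and 1 fell, the ribonucleotide reductase subunit gene Rrm2b (-1.54, 0.0159).

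Together 14 of the 98 cell cycle genes tested, of 106 listed, rose and 8 fell in Smc1, 22.4% against 14.1% of all genes. Their median difference was -0.05, against 0.03 over all genes. When single arrays were left out, the count of 22 was 4 (first Smc1 array), 13 (second Smc1 array), 4 (first GFP array) and 6 (second GFP array). Of the 19 genes named in this comparison, 4, 11, 4 and 6 were still called in these fits, and all 19 kept their direction. No p53 target was called in any of the 4. With the Actb ratio as a covariate 7 of the 19 were called, and none of the p53 targets or the Rb and E2F genes, nor Cdk6, Cdk2, Suz12 or Dtl. With the mean of all probe sets 13 were called. In CapH2 and in Smc2 against GFP limma called 0 of the 98, with 20 and 15 at an unadjusted p below 0.05. In Smc1 against the condensin knockdowns 4 rose and 3 fell, 7.14% against 7.85% of all genes. Among these Klf4 (-1.76, limma adjusted p = 0.00179), Tfdp2 (-1.10, 0.00984) and Ccnd3 (-0.93, 0.0191) fell and Id2 (1.10, 0.0145) and Ccng1 (0.54, 0.0211) rose. Ccnd3 was not called with the mean of all probe sets (-0.49, adjusted p = 0.216). The count of 7 was 1 without Smc1 replicate 1 and 11 without Smc2 hairpin 2. In CapH2 against Smc2 limma called 0 of the 98, and 0 had an unadjusted p below 0.05.

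**Figure D5:**
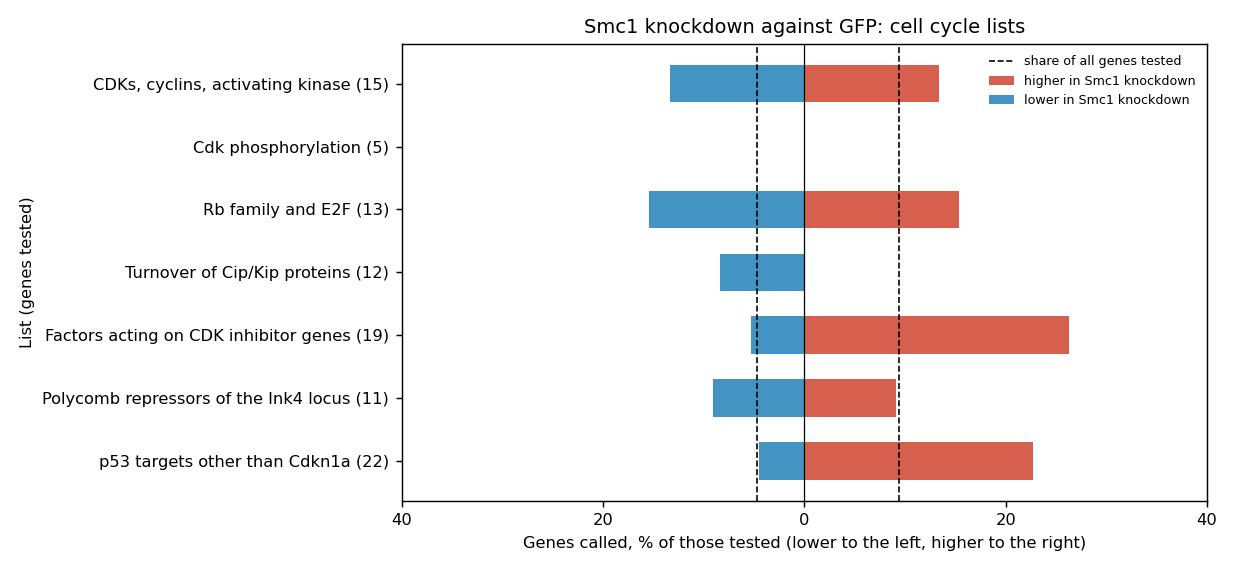
Share of tested genes in each cell cycle list that limma called lower (left) or higher (right) in the Smc1 knockdown against GFP, with the number tested in brackets and dashed lines at the shares of all genes tested (4.69% lower, 9.38% higher). The longest bar to the right belongs to the transcription factors, of which 5 of 19 were called higher.

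The genes whose log2 values were most like those of each inhibitor over the 8 arrays were found by Pearson's r among all genes tested, as a description. Closest to Cdkn1a were Msln (0.975), Rhox6 (0.974) and Lemd1 (0.971). For Rgcc they were Osbpl1a (0.99), Slc25a13 (0.989) and Sgo2a (0.986), for Cdkn2a Phlpp2 (0.983), Slc44a3 (0.983) and Anks1 (0.972), and for Cdkn2b AU040320 (0.969), Gsn (0.965) and Mapkapk3 (0.964). Cdkn1b lay closest to Lims1 (0.992), Plekhf1 (0.98) and Magt1 (0.975), Cdkn2c to Gpkow (0.986), Ppib (0.971) and Tmem50b (0.971), and Cdkn2d to Fbxl12 (0.98), Anxa7 (0.976) and Nectin2 (0.972). Among the 7 genes themselves r ran from -0.486 for Cdkn2b with Rgcc to 0.874 for Cdkn2c with Cdkn2d, and it was 0.750 for Cdkn1a with Cdkn2b and 0.425 for the neighbours Cdkn2a and Cdkn2b. All of these values rest on the same 8 arrays in 4 groups.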

How the data were processed

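The authors deposited a linear intensity for each probe set on each array, and the sources used here do not state how probes were combined. From the values, each array had been scaled: means trimmed by 2% at each end lay between 488.9 and 490.0. Detection calls were not used here.

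Of 44903 probe sets, 34758 carried 1 symbol in the platform annotation, and the brightest one stood for a gene. The 64 array controls were left out. The identifiers of all 7 genes matched the RefSeq table of GRCm38.p6. Genes above the array median on at least 2 of 8 arrays were tested (12400 of 18140). All 8 arrays were fitted together on log2(intensity + 16) with limma 3.58.1 in R 4.3.3 (group means and an intensity trend, with 4 residual degrees of freedom and 5.95 from the prior). Calls were made below an adjusted p of 0.05 (Benjamini-Hochberg). P-values measure the spread between these arrays, which mixes hairpins with replicates. The fit was tested on simulated data. Alternatives changed the pseudocount, scaling, filter, probe set rule, moderation and arrays used.

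Genes, lists and tests were chosen with earlier results of these data known. In the cell cycle lists, up to 4 called genes with the smallest adjusted p were named in Smc1 against GFP, and up to 2 in other comparisons. Promoter positions are those of RefSeq, and probe positions are not given.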

Additional observations from a re-analysis of the deposited data

Results flagged for a closer look

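Cdkn1a and Cdkn2a were flagged because both Smc1 arrays lay above both GFP arrays while all 4 condensin arrays lay below them. The share of all genes with this joint pattern was not counted. Its parts were common, as Smc1 lay above GFP for 34.6% of all genes, CapH2 below for 21.9% and Smc2 below for 21.7%. For Cdkn1a the difference from GFP was 0.74 in Smc1, -0.72 in CapH2 and -0.62 in Smc2 on the log2 scale, and Smc1 exceeded the condensin mean by 1.41. For Cdkn2a the same values were 0.32, -0.62, -0.39 and 0.82. Its Smc2 hairpin 2 array was close to the control, at 593 against 611 and 612, and without hairpin 1 the Smc2 difference was -0.04. Limma called the Smc1 against condensin difference for Cdkn1a and not for Cdkn2a, but the genes were chosen with this contrast in view, so it serves as a description and not as a test.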

How the results depend on the processing

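Of 672 recomputed differences of the 7 genes, 647 kept their direction and 0 called differences turned. Only Rgcc in Smc1 against GFP and Cdkn1a in Smc1 against the condensin knockdowns were called as reported. Many of the 672 could not move, because the filter, the moderation and arrays outside a comparison do not enter a difference. The counts are therefore no measure of robustness. Recomputed differences that moved by less than the spread within groups, which mixes hairpins with replicates, were 135 of 140 in Smc1 against GFP. They were 124 of 133 in CapH2 and 127 of 133 in Smc2 against GFP, and 133 of 133 in Smc1 against the condensin knockdowns. In CapH2 against Smc2 only the calls were compared, and the Rgcc difference ran from -1.25 to 1.02. In Smc1 against GFP the count of the 7 genes called was 1 as reported, where 14.1% of all genes were called. The count was 2 with a pseudocount of 64 (14.8% of all genes), quantile normalization (14.4%), median centring (14.1%) or a filter on all 8 arrays (14.3%). It was also 2 with the mean of all probe sets (10.7%), the paired condensin arrays (23.8%) or the Actb ratio (4.63%). With only the groups compared it was 3 (21.7%). It was 0 to 3 when single arrays were left out. The count of cell cycle genes, 22, was 8 with the Actb ratio and 4 to 25 without single arrays. In CapH2 against GFP both counts, 0 as reported, were 4 and 20 with the paired arrays, and the second was 0 to 1 without single arrays. In Smc2 against GFP they were 3 and 14 with the paired arrays, 1 and 1 with the Actb ratio, and 0 to 1 and 0 to 3 without single arrays. In Smc1 against the condensin knockdowns the counts, 1 and 7, were 2 and 11 with the paired arrays, 2 and 16 with the Actb ratio, and 0 to 3 and 1 to 11 without single arrays. With the paired arrays limma called 9.72% of all genes in CapH2 and 9.98% in Smc2 against GFP, and 11.1% in Smc1 against the condensin knockdowns. With the Actb ratio it called 0.468% in Smc2 against GFP and 13.4% in Smc1 against the condensin knockdowns. The share of all genes called also changed without single arrays, so the counts are not read as results about the 7 genes. The paired arrays and the Actb ratio were chosen after the data were seen. With the paired arrays, condensin differences from GFP and from Smc1 are read at CapH2 hairpin 3 and Smc2 hairpin 1, not at group means. The causes of these changes were not tested. Median centring moved the median difference of all genes in Smc2 against GFP to 0.101, against -0.00 as reported.

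With replicate numbers of Smc1 and GFP as a replicate block, 1 of the 7 genes (Rgcc) and 20 cell cycle genes were called, against 1 and 22 without it. The numbers were not taken as pairs, as their deviations correlated with r = 0.0661 across genes. A lone array left in a group was assumed to vary like the others. With 2 arrays per group, the number of arrays limits the precision of every value.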
